A study of Mus musculus with 5 samples.

Results

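DNA methylation at the genes of the leukocyte Rac and Vav pathway was described in 4 mouse teratomas and 1 muscle by reduced representation bisulfite sequencing. This assay cuts DNA at CpG-containing sites, so it samples mainly CpG-rich stretches, and reads an unmethylated cytosine as a converted base. The genes were Rac2, Vav1, Dock2, Arhgef18, Arhgap30, Ripor2, Arhgdib, Coro1a, Apbb1ip and Fermt3, 10 of 21887 protein coding genes. They were chosen by their roles in leukocytes and by their mean levels at the gene ends, since several lay near 0% in teratomas of the 2iL label. Low levels in those libraries are thus part of the choice and carry no test. The teratomas carry the culture labels P5_a2iL_1, P5_LCDM_1, P5_2iL_F and P5_2iL. They grew after embryonic stem cells kept under these conditions had been injected into tetraploid embryos, and the labels do not spell the conditions out. Muscle was the control tissue. All mice were of the C57BL/6x129S6 strain, and the labels give neither age nor sex. Each group holds 1 library, so there is no replicate and no test between groups, and each difference compares libraries and not conditions.

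Rac proteins are small GTPases that switch on when an exchange factor loads them with GTP and switch off when a GTPase activating protein speeds hydrolysis. In leukocytes, Rac2 drives actin assembly and the phagocyte oxidase, Vav1 and Dock2 activate Rac below antigen and chemokine receptors, and integrin adaptors link the same signals to adhesion. Many of these genes are known mainly from blood cells, though Arhgef18 is known from epithelia as well. Methylation at a gene start is, in general, found with a silent gene. Expression was not measured here.

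The value of a cytosine is the percent of its reads that were methylated, as deposited. The 5 libraries listed between 4017125 cytosines in muscle and 5323090 in P5_2iL_F, and 3162868 cytosines were listed in all 5. Read numbers per cytosine are not in the files used here, so the depth behind a value is unknown and intervals could not be computed. Error can be judged only by comparing the 2 strands of a CpG in 1 library, whose spread was between 10.97 points per cytosine in P5_2iL and 15.2 points in muscle over 1078502 CpG pairs. It leaves out the spread between animals and between library preparations. The level of a window is the mean over its shared cytosines. The start window runs from 1000 bp outside the gene start to 500 bp inside, the far end window is its mirror image, and the body lies between. A window was called lower or higher where levels differed by 25 percentage points or more over 3 or more shared cytosines, which is a size rule and not a test. The muscle library had the lowest level in 13 of 14 measured skeletal muscle genes. An example is the Z-disc gene Ldb3, with 46.7% in P5_a2iL_1 and 84.2% in P5_2iL, against 4.69% in muscle. The share of all genes with muscle the lowest was not counted. Muscle was also the lowest in the mean over all measured start windows, at 11.3%, against 13.2% in P5_LCDM_1 and 14.0% in P5_2iL. In tissue, the share of cells of a type and the level per cell cannot be told apart.

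The promoters of 9 of the 10 genes are in the RefSeq promoter table (GRCm38.p6, the same build as mm10), 300 bases each from 250 before to 50 after a transcription start. Those of Dock2 and of the first start of Arhgef18 are shown because they hold cytosines whose level separated the libraries. In the Vav1 stretch no pair of libraries was past the size rule, with 0% in P5_a2iL_1 and 24.5% in muscle. It is shown because the separation in its start window lay beyond it, from +56 bp on. The second Arhgef18 promoter and that of Coro1a are shown as contrasts. Letters run 5′ to 3′ along the gene, and capitals mark a CpG with a cytosine listed in all 5 libraries.
Vav1, chr17:57278850-57279149, plus strand: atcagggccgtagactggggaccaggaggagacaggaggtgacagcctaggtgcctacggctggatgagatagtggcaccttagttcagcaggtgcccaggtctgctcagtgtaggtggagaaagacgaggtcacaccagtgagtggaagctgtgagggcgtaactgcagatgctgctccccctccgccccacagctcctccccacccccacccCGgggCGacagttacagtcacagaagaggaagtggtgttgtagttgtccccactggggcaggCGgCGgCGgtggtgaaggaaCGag
Dock2, chr11:34783856-34784155, minus strand: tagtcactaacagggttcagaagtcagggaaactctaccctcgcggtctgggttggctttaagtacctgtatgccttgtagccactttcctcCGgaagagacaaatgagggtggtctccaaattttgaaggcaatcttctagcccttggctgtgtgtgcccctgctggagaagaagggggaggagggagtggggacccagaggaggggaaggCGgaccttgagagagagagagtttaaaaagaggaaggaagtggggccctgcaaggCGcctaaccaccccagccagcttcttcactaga
Arhgef18, chr8:3353187-3353486, plus strand, first start: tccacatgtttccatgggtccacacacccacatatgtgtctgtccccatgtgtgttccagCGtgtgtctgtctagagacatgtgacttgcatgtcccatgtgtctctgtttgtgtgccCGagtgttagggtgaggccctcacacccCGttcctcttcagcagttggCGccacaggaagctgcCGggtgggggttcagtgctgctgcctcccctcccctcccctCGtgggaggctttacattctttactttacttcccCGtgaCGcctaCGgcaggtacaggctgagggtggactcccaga
Arhgef18, chr8:3392758-3393057, plus strand, second start: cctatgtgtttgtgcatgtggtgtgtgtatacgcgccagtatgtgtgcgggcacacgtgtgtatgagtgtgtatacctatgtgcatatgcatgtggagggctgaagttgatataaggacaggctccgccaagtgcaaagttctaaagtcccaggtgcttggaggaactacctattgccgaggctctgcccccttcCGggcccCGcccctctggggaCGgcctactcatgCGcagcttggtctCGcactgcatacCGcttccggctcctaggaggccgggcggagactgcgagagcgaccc
Coro1a, chr7:126704767-126705066, minus strand: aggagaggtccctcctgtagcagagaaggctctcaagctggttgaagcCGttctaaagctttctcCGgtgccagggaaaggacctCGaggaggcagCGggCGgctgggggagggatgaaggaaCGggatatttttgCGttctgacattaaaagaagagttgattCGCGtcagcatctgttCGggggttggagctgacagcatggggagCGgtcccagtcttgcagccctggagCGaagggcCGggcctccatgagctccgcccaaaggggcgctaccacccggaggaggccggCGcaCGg
The Vav1 stretch holds 11 CpGs, 6 of them in capitals, and the Dock2 stretch holds 5, of which 3 are in capitals. All 9 CpGs of the first Arhgef18 stretch are in capitals. The second Arhgef18 start has 17 CpGs with 6 in capitals, and Coro1a has 19 with 15 in capitals. Over all 32851 promoters of the table the median was 7 CpGs.

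Start windows of 7 genes could be measured, those of Rac2, Vav1, Dock2, Arhgef18, Arhgap30, Ripor2 and Coro1a. In 6 of the 7 the muscle library was the highest, and in 6 of the 7 P5_a2iL_1 and P5_LCDM_1 both lay between the 2iL libraries and muscle. P5_2iL was the lowest library in 5 genes and P5_2iL_F in 2. The share of all genes with these orders was not counted. Against muscle, 4 of 7 were lower in P5_a2iL_1, where 0.667% of 13933 measured genes were lower, and 4 of 7 in P5_LCDM_1, where 0.998% were. In P5_2iL_F 6 of 7 were lower, with 0.847% of all genes, and in P5_2iL 6 of 7, with 0.940%. None of the 7 was higher in any teratoma, while 2.83%, 3.09%, 4.04% and 4.34% of all genes were higher in P5_a2iL_1, P5_LCDM_1, P5_2iL_F and P5_2iL. The rule that chose the genes used these contrasts, so the counts are a description. The median difference over the 7 genes was -36.3 points in P5_a2iL_1, -34.5 in P5_LCDM_1, -69.2 in P5_2iL_F and -69.7 in P5_2iL, where the medians over all genes lay between 0.199 and 0.225 points. The 4 comparisons share the muscle library. Of the calls against muscle, the nearest to the size rule was Ripor2 in P5_LCDM_1, at -34.5 points. Just outside the rule lay Vav1 in P5_a2iL_1 at -24.4.

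**Figure D1:**
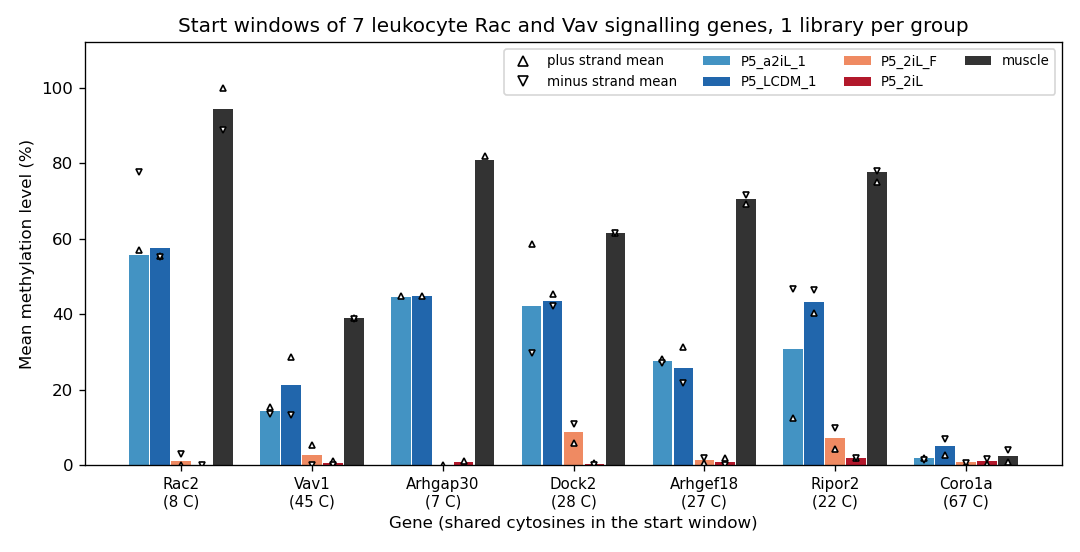
Mean methylation level in percent (vertical axis) in the start windows of the 7 measured genes (horizontal axis, with the number of shared cytosines C), 1 bar per library and triangles for the mean of each strand. Rac2 stands at 94.4% in muscle and at 0% in P5_2iL, and Coro1a stays at or under 5.20% in all 5 libraries.

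Rac2 encodes the Rac GTPase of blood cells. The tables used here give it no strand, and both ends held 8 shared cytosines. The end with more cytosines listed over the 5 libraries (chr15:78572284-78573783) was therefore taken as its start. The margin was small, since P5_2iL_F listed 11 there and 8 at the other end, P5_LCDM_1 8 and 10, and the rest 8 at both. Of the 8 shared cytosines of the start window, 3 were on the plus strand, 3 on the minus strand and 2 unassigned. Its level was 55.6% in P5_a2iL_1, 57.6% in P5_LCDM_1, 1.14% in P5_2iL_F, 0% in P5_2iL and 94.4% in muscle. All 8 cytosines were at 0% in P5_2iL and 7 were in P5_2iL_F, while 7 of 8 were above 80% in muscle. Single cytosines ranged from 0% to 100% in P5_a2iL_1 and from 28.6% to 100% in P5_LCDM_1, so a few of their cytosines reached the muscle values. The strands lay at 57.1% (plus) and 77.8% (minus) in P5_a2iL_1, 55.6% and 55.2% in P5_LCDM_1, 0% and 3.03% in P5_2iL_F, 0% on both in P5_2iL, and 100% and 88.9% in muscle. On the minus strand alone, over 3 cytosines, P5_a2iL_1 was no longer past the size rule against muscle, at -11.1 points. At the other end of the gene (chr15:78558169-78559668), also with 8 cytosines, the levels were 48.9%, 67.8%, 64.5%, 47.2% and 48.4% in P5_a2iL_1, P5_LCDM_1, P5_2iL_F, P5_2iL and muscle. The separation of the libraries was thus seen at 1 of the 2 ends of Rac2. In the kilobase from 1000 to 1999 bp into the gene, muscle was again the highest and P5_2iL the lowest over 15 cytosines, at 41.6% in P5_a2iL_1, 34.9% in P5_LCDM_1, 20.7% in P5_2iL_F, 18.6% in P5_2iL and 69.3% in muscle.

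Vav1 encodes the exchange factor that couples antigen receptors to Rac. Its start window (chr17:57278100-57279599) held 45 shared cytosines, 23 plus and 22 minus. The level was 14.5% in P5_a2iL_1, 21.1% in P5_LCDM_1, 2.78% in P5_2iL_F, 0.582% in P5_2iL and 38.9% in muscle. The muscle strands lay at 39.1% and 38.7%, and 10 of the 45 cytosines were at 0% even there. Of the 45 cytosines 41 were at 0% in P5_2iL and 34 in P5_2iL_F. The window was not even along its length. After its values were seen it was split at the end of the printed promoter. Over the 11 cytosines from -36 to +47 bp P5_a2iL_1 was at 0%, P5_LCDM_1 at 7.14%, P5_2iL_F at 7.79%, P5_2iL at 0.826% and muscle at 24.5%. Over the 34 cytosines from +56 to +469 bp the levels were 19.2%, 25.7%, 1.16%, 0.502% and 43.5% in the same libraries. The 2 stretches put P5_2iL_F and P5_a2iL_1 in opposite order. Within 500 bp outside to 250 bp inside the start, the difference from muscle was -24.5 points in P5_2iL and -21.2 in P5_2iL_F, no longer past the size rule.

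Dock2 encodes an exchange factor that activates Rac in migrating lymphocytes. Its start window (chr11:34783406-34784905) held 28 shared cytosines, 12 plus and 16 minus, and lay at 42.1% in P5_a2iL_1, 43.6% in P5_LCDM_1, 8.88% in P5_2iL_F, 0.311% in P5_2iL and 61.5% in muscle. In P5_2iL 26 of the 28 cytosines were at 0%, and in P5_2iL_F 2 were. P5_2iL_F thus held a low level at most positions, with a highest cytosine at 15.4%, against 4.35% in P5_2iL. The strands differed in P5_a2iL_1, with 58.5% on the plus and 29.8% on the minus strand, and lay at 45.4% and 42.3% in P5_LCDM_1, 6.03% and 11.02% in P5_2iL_F, 0.725% and 0% in P5_2iL and 61.5% on both in muscle. Against muscle, Dock2 was not past the size rule in P5_a2iL_1 (-19.4 points) or P5_LCDM_1 (-17.9 points). The 3 CpGs in capitals of the Dock2 promoter, each measured on 1 strand, lay at 36.2%, 37.1%, 10.5%, 0% and 59.7% in P5_a2iL_1, P5_LCDM_1, P5_2iL_F, P5_2iL and muscle.

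Arhgef18 encodes an exchange factor for RhoA, a relative of Rac, and is known from epithelia as well as from leukocytes. Its first start window (chr8:3352338-3353837) held 27 cytosines, 11 plus and 16 minus. The level was 27.5% in P5_a2iL_1, 25.7% in P5_LCDM_1, 1.30% in P5_2iL_F, 0.823% in P5_2iL and 70.5% in muscle. Muscle did not overlap the 2iL libraries at any cytosine, with its lowest at 38.5%, against highest values of 6.25% in P5_2iL_F and 11.1% in P5_2iL. The strands lay at 28.2% and 27.0% in P5_a2iL_1, 31.2% and 21.8% in P5_LCDM_1, 0.478% and 1.86% in P5_2iL_F, 2.02% and 0% in P5_2iL, and 69.1% and 71.5% in muscle. Across the 13 cytosines of the printed first promoter the levels were 22.4%, 16.9%, 2.24%, 0% and 64.3% in P5_a2iL_1, P5_LCDM_1, P5_2iL_F, P5_2iL and muscle. The second start, in a window (chr8:3392008-3393507) with 15 cytosines, all on the plus strand, had muscle as the lowest library. There P5_a2iL_1 and P5_2iL_F were both at 45.0%, P5_LCDM_1 was at 18.9%, P5_2iL at 36.0% and muscle at 3.33%. In muscle 1 of these 15 cytosines was above 0%. Over the 6 cytosines of the printed second promoter P5_a2iL_1 lay at 54.2% and P5_2iL_F at 41.7%, while P5_LCDM_1, P5_2iL and muscle were at 0%.

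Arhgap30 encodes a GTPase activating protein of Rac and RhoA. Its start window (chr1:171387960-171389459) held 7 shared cytosines from +292 to +474 bp, 6 on the plus strand, 0 on the minus strand and 1 unassigned, so the strands could not be compared. The level was 44.6% in P5_a2iL_1, 44.7% in P5_LCDM_1, 0% in P5_2iL_F, 0.952% in P5_2iL and 81.0% in muscle. Single cytosines lay from 37.5% to 56.2% in P5_a2iL_1, from 17.4% to 60.9% in P5_LCDM_1, all at 0% in P5_2iL_F, up to 6.67% in P5_2iL and from 66.7% to 91.7% in muscle. P5_a2iL_1 and P5_LCDM_1 overlapped each other, but neither overlapped muscle or the 2iL libraries. The first kilobase of the gene, with 12 cytosines, lay at 42.4%, 49.0%, 5.95%, 4.03% and 81.3% in P5_a2iL_1, P5_LCDM_1, P5_2iL_F, P5_2iL and muscle. The window also touches the neighbouring gene Nectin4. Over all 13 cytosines listed in both libraries of the pair, P5_a2iL_1 was at -23.4 points from muscle, short of the size rule.

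Ripor2 encodes an inhibitor of RhoA that holds back the movement of T cells and neutrophils. Its outer start window (chr13:24500524-24502023) held 22 cytosines between +26 and +303 bp, 10 plus, 11 minus and 1 unassigned. The level was 30.8% in P5_a2iL_1, 43.1% in P5_LCDM_1, 7.31% in P5_2iL_F, 1.92% in P5_2iL and 77.6% in muscle. In muscle 13 of the 22 cytosines were above 80%, and in the 4 teratomas 0 were. The strands lay at 12.5% (plus) and 46.7% (minus) in P5_a2iL_1, 40.4% and 46.5% in P5_LCDM_1, 4.21% and 9.78% in P5_2iL_F, 2% and 2.02% in P5_2iL, and 75% and 78.0% in muscle. Over the 28 cytosines listed in both P5_LCDM_1 and muscle the difference was -24.1 points, short of the size rule. An inner start with 24 CpGs in its promoter (chr13:24638398-24638697) looked different. In its window 95 cytosines lay at 1.10% in P5_a2iL_1, 3.05% in P5_LCDM_1, 0.978% in P5_2iL_F, 0.515% in P5_2iL and 0.664% in muscle, so the separation was at the outer start. Arhgdib encodes the GDP dissociation inhibitor of hematopoietic cells, which keeps small GTPases in the cytosol. At its start window (chr6:136941400-136942899) 0 cytosines were listed in any library.

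Coro1a encodes coronin 1A, an actin regulator of leukocytes. Its start window (chr7:126704317-126705816) held 67 cytosines, 37 plus, 29 minus and 1 unassigned. It was low in every library, at 1.89% in P5_a2iL_1, 5.20% in P5_LCDM_1, 0.942% in P5_2iL_F, 1.12% in P5_2iL and 2.41% in muscle. In muscle 53 of the 67 cytosines were at 0%. Further in, the libraries did separate. From 1000 to 1999 bp 14 cytosines lay at 38.3% in P5_a2iL_1, 35.6% in P5_LCDM_1, 19.1% in P5_2iL_F, 12.8% in P5_2iL and 65.5% in muscle.

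Fermt3 and Apbb1ip act on integrins. Fermt3 encodes kindlin-3, which binds the tails of beta integrins in blood cells, and Apbb1ip encodes RIAM, which links the GTPase Rap1 to talin. Fermt3 had 0 shared cytosines in its start window (chr19:7018970-7020469), which also touches Stip1. The nearest 5 cytosines, from +1341 to +1560 bp, lay at 35.1% in P5_a2iL_1, 27.1% in P5_LCDM_1, 3.33% in P5_2iL_F, 1.54% in P5_2iL and 100% in muscle. Apbb1ip had 0 listed cytosines at its outer start (chr2:22754971-22756470). At the inner start of the RefSeq promoter (chr2:22773327-22774826) 20 cytosines lay between 0% in P5_a2iL_1 and P5_2iL and 2.5% in P5_LCDM_1, with 0.655% in muscle, so the libraries did not separate there.

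**Figure D2:**
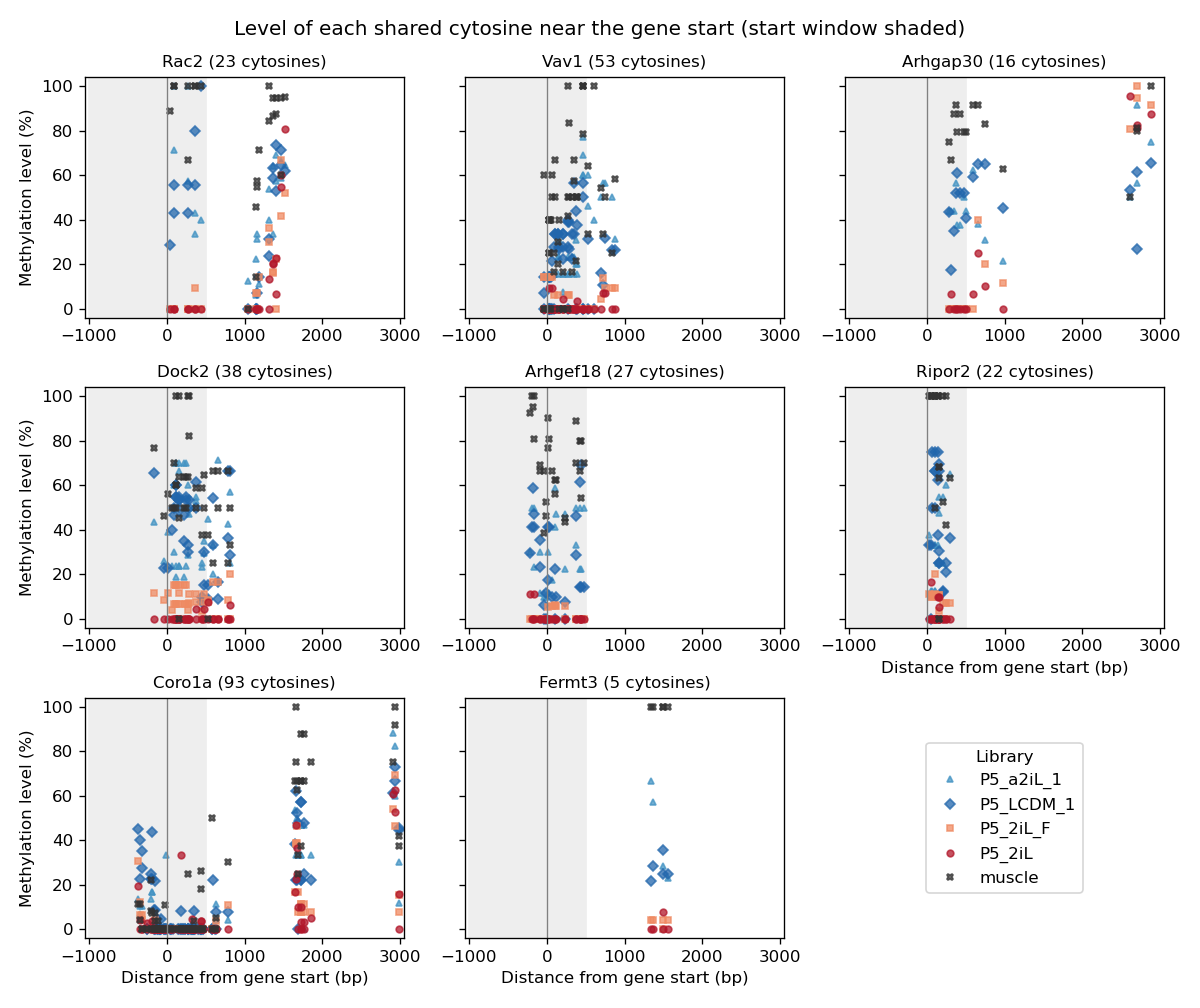
Methylation level in percent (vertical axis) of each shared cytosine from 1000 bp before to 3000 bp after the gene start (horizontal axis, bp) in 8 genes, with 1 symbol per library and the start window shaded. Muscle symbols lie above those of P5_2iL over the first kilobase of Rac2, Arhgap30 and Arhgef18, and the 14 Coro1a cytosines from 1000 to 1999 bp average 12.8% in P5_2iL, against 65.5% in muscle.

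Among the teratomas, P5_a2iL_1 and P5_LCDM_1 were compared with both 2iL libraries. Against P5_2iL, 5 of 7 start windows were higher in P5_a2iL_1 (Rac2, Arhgap30, Dock2, Arhgef18 and Ripor2), where 0.883% of all genes were higher. Against the same library, 4 of 7 were higher in P5_LCDM_1 (Rac2, Arhgap30, Dock2 and Ripor2), where 1.18% of all genes were. Against P5_2iL_F, 4 of 7 were higher in P5_a2iL_1, with 0.732% of all genes, and 4 of 7 in P5_LCDM_1, with 1.16%. None of the 7 was lower. Over all genes 1.61% were lower in P5_a2iL_1 and 2.59% in P5_LCDM_1 against P5_2iL, and 1.21% and 2.26% against P5_2iL_F. The differences were largest at Rac2, at 55.6 points for P5_a2iL_1 and 57.6 for P5_LCDM_1 against P5_2iL. Arhgef18 lay at the edge of the rule, at 26.7 points for P5_a2iL_1 and 24.8 for P5_LCDM_1. Between P5_2iL_F and P5_2iL 0 of 7 were higher, as were 0.172% of all genes, and the largest difference was 8.57 points, at Dock2. All 4 comparisons of the first 2 teratomas use the same 4 libraries, and the genes were chosen for low 2iL levels.

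Gene bodies were measured in all 10 genes, and few were past the size rule. Against muscle, 0 of 10 bodies were past the size rule in P5_a2iL_1 and in P5_LCDM_1, where 0.517% and 1.10% of 16237 genes were lower and 2.83% and 2.64% higher. In P5_2iL_F 1 of 10 was higher (Apbb1ip) and 0 lower, beside 5.49% and 0.782% of all genes. In P5_2iL 2 of 10 were higher (Dock2 and Apbb1ip) and 1 lower (Coro1a), beside 6.28% and 0.881%. The Dock2 body, with 368 cytosines (161 plus, 156 minus, 51 unassigned), lay at 81.6% in P5_a2iL_1, 67.9% in P5_LCDM_1, 88.7% in P5_2iL_F, 91.8% in P5_2iL and 65.5% in muscle. Its libraries ran the other way round from its start window, with P5_2iL the highest and muscle the lowest. Apbb1ip had the same direction over 61 cytosines (29 plus, 21 minus, 11 unassigned), at 52.5%, 37.7%, 55.2%, 58.0% and 29.1% in P5_a2iL_1, P5_LCDM_1, P5_2iL_F, P5_2iL and muscle. Coro1a ran with the starts over 41 cytosines (19 plus, 20 minus, 2 unassigned), at 34.2%, 36.8%, 24.4%, 18.9% and 49.3% in those libraries.

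The other bodies differed less between libraries. Rac2 (33 cytosines, 17 plus and 16 minus) lay at 66.7% in P5_a2iL_1, 64.6% in P5_LCDM_1, 60.5% in P5_2iL_F, 59.6% in P5_2iL and 72.7% in muscle, so that both 2iL libraries were the lowest and muscle the highest, as at its start. Arhgdib (13 cytosines, 6 plus, 6 minus and 1 unassigned) ranged from 4.62% in P5_a2iL_1 and P5_2iL to 17.7% in muscle. Arhgef18 (256 cytosines, 127 plus, 109 minus and 20 unassigned) ranged from 91.9% in P5_2iL_F to 78.7% in muscle. Vav1 (86 cytosines, 35 plus, 42 minus and 9 unassigned) and Arhgap30 (45 cytosines, 20 plus, 17 minus and 8 unassigned) were lowest in P5_LCDM_1, at 62.3% and 77.0%, against 75.8% and 81.4% in muscle. Ripor2 (316 cytosines, 137 plus, 145 minus and 34 unassigned) lay between 48.1% in P5_a2iL_1 and 41.0% in muscle, and Fermt3 (76 cytosines, 34 plus, 36 minus and 6 unassigned) between 87.0% in P5_2iL and 84.2% in muscle.

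Far end windows held 3 or more shared cytosines in 5 genes. Against muscle only Apbb1ip was past the size rule, higher in P5_a2iL_1 and in P5_2iL, at 100% in both against 66.7% in muscle, over 3 cytosines, 1 on each strand and 1 unassigned. There P5_LCDM_1 was at 60% and P5_2iL_F at 86.7%. None was lower in any teratoma. Over all 4411 measured far ends, 10.4%, 10.3%, 16.0% and 16.6% were higher and 2.79%, 3.49%, 3.17% and 3.60% lower in P5_a2iL_1, P5_LCDM_1, P5_2iL_F and P5_2iL. At Arhgdib 3 plus strand cytosines lay at 90.5%, 100%, 84.3%, 79.5% and 100% in P5_a2iL_1, P5_LCDM_1, P5_2iL_F, P5_2iL and muscle. Coro1a, with 13 cytosines (3 plus, 8 minus, 2 unassigned), ranged from 85.3% in P5_2iL to 67.5% in muscle, and Fermt3, with 9 (6 plus, 3 minus), from 91.1% in P5_2iL_F to 77.3% in P5_a2iL_1, with 88.9% in muscle. The far ends of Vav1, Dock2, Arhgef18, Arhgap30 and Ripor2 held 0 shared cytosines.

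In tiles of 1 kb counted from the start, the 10 genes had 133 measured tiles. Against muscle, 11 were lower and 24 higher in P5_a2iL_1, where 2.65% of 129792 tiles were lower and 10.9% higher over all genes. In P5_LCDM_1 13 were lower and 15 higher (4.77% and 9.85% over all genes), in P5_2iL_F 15 and 42 (2.97% and 15.4%), and in P5_2iL 15 and 42 (3.11% and 16.6%). In P5_2iL 11 of the 15 lower tiles began within 3000 bp of a gene start. The share of tiles at that place was not counted, either for the 10 genes or for all genes. Tiles at the starts hold values that the choice of the genes used, so the lower counts and their place are a description. Of its 42 higher tiles 35 lay in the long genes Dock2, Ripor2 and Arhgef18, which hold 89 of the 133 tiles. Of the 42 Dock2 tiles 12 were higher in P5_a2iL_1, 4 in P5_LCDM_1, 22 in P5_2iL_F and 23 in P5_2iL. The tile 489000 bp into Dock2, with 10 cytosines, lay at 85.5% in P5_a2iL_1, 85.0% in P5_LCDM_1, 86.2% in P5_2iL_F, 98.6% in P5_2iL and 18.0% in muscle. In Arhgef18 the tile at 23000 bp, with 11 cytosines, stood at 75%, 47.9%, 88.6%, 98.7% and 6.06% in those libraries. These stretches were low in muscle and high in the teratomas, opposite to the starts of the same genes.

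Some tiles inside the genes resembled the starts. In Ripor2 the tile at 132000 bp, with 8 cytosines, lay at 29.8% in P5_a2iL_1, 42.9% in P5_LCDM_1, 12.4% in P5_2iL_F, 1.66% in P5_2iL and 72.2% in muscle. In Vav1 the tile at 11000 bp, with 12 cytosines, lay at 36.4%, 9.98%, 20.4%, 2.02% and 66.4% in these libraries. Ripor2 also held a tile of the other kind at 20000 bp, whose 6 minus strand cytosines lay at 90.1%, 57.1%, 55.0%, 95.8% and 1.67%. The last tile of Apbb1ip, at 119000 bp, had 18 cytosines at 98.6%, 58.1%, 88.9%, 98.1% and 25.9%, with P5_LCDM_1 the nearest to muscle.

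**Figure D3:**
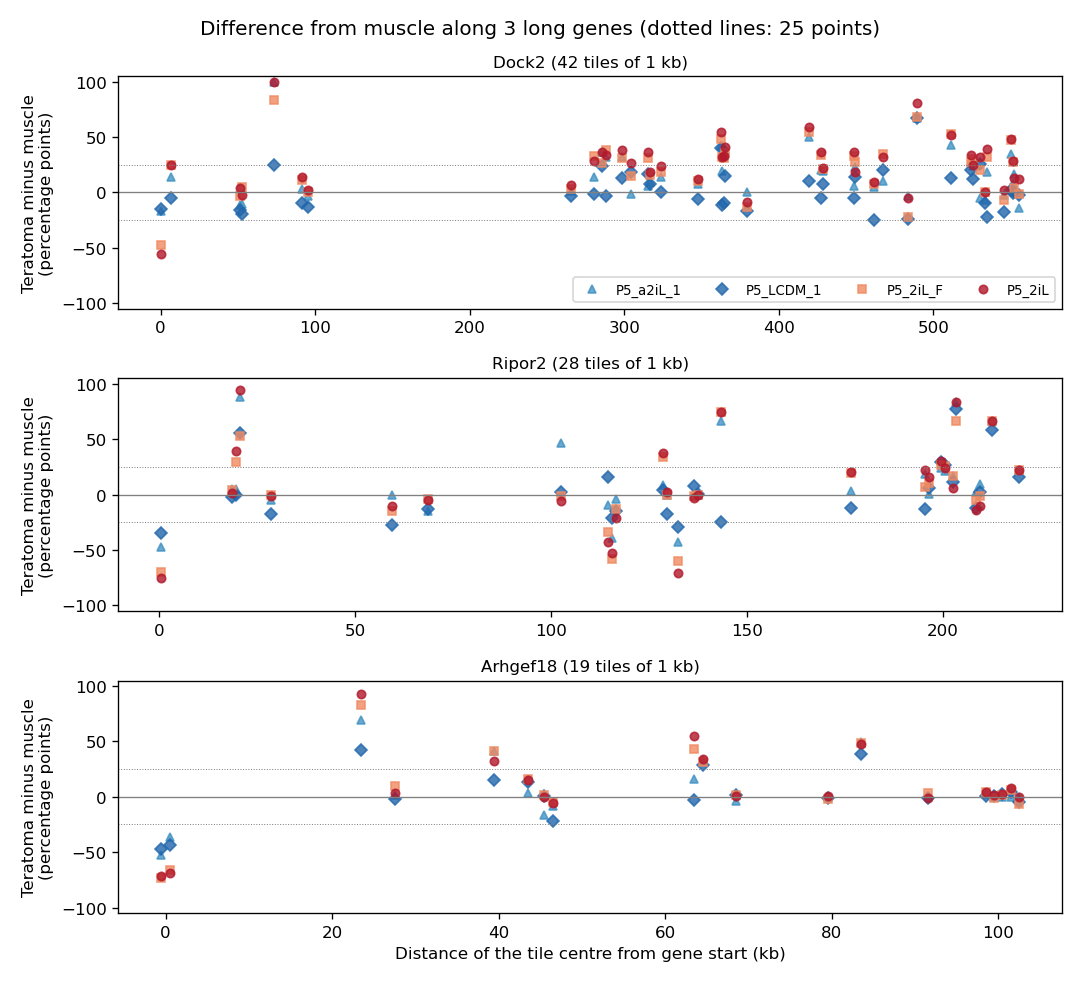
Difference of each teratoma from muscle in percentage points (vertical axis) for 1 kb tiles by distance from the gene start in kb (horizontal axis) in Dock2, Ripor2 and Arhgef18, with 1 symbol per teratoma and dotted lines at 25 points. The first tile of each gene lies below 0 in all 4 teratomas, and the Dock2 tile at 489000 bp stands at 98.6% in P5_2iL, against 18.0% in muscle.

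The relatives of these genes that other tissues use were low in all libraries, as the median gene start was. Over all 13933 measured genes the median start window lay at 1.28% in P5_a2iL_1, 1.25% in P5_LCDM_1, 1.05% in P5_2iL_F, 1.01% in P5_2iL and 0.926% in muscle. Of 26 such paralogs 22 were measured at the start, and 0 were past the size rule in any of the 4 comparisons with muscle. None could be called lower, since their highest level in muscle was 12.0%. Over all genes 0.667% to 0.998% were lower and 2.83% to 4.34% higher, so 0 higher calls among 22 genes do not set the list apart. Rac1, the Rac of most tissues, lay at 0.157% in P5_a2iL_1, 0.394% in P5_LCDM_1, 1.15% in P5_2iL_F, 1.52% in P5_2iL and 0.0972% in muscle over 49 cytosines. Vav3, an exchange factor found in many tissues, was at or under 1.28% in every library. Dock1 reached 8.05% in P5_a2iL_1, against 1.38% in muscle. Fermt1, the kindlin of epithelia, was the highest of the 22, between 18.6% in P5_a2iL_1 and 12.0% in muscle.

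A further 52 genes of GTPase and receptor signalling in leukocytes had 34 measured starts. Against muscle 1 was lower and 1 higher in P5_a2iL_1, 0 and 0 in P5_LCDM_1, 1 and 2 in P5_2iL_F, and 1 and 2 in P5_2iL. Over all genes 0.667%, 0.998%, 0.847% and 0.940% were lower and 2.83%, 3.09%, 4.04% and 4.34% higher in these libraries. In muscle 7 of the 34 genes lay at 20% or more, so for most of the list a lower call could not occur. With at most 2 higher calls among 34 genes, the list was not set apart from all genes in that direction. Lat, an adaptor of the T cell receptor, was the lower gene in both 2iL libraries, at 74.4% in P5_a2iL_1, 67.0% in P5_LCDM_1, 51.3% in P5_2iL_F, 49.2% in P5_2iL and 83.2% in muscle over 20 cytosines. Arhgap9, a GTPase activating protein of blood cells, was higher in both 2iL libraries, at 59.1%, 65.5%, 87.0%, 84.2% and 42.4% over 11 cytosines in the same order of libraries. Zap70, a kinase of the T cell receptor, was higher in P5_a2iL_1 and both 2iL libraries, at 83.4%, 59.97%, 89.0%, 90.2% and 57.2% over 34 cytosines. The lower gene in P5_a2iL_1 was Arhgap45, at 50% against 75% in muscle over 4 cytosines. The list median stood at 2.61% in P5_a2iL_1, 3.03% in P5_LCDM_1, 1.39% in P5_2iL_F, 1.80% in P5_2iL and 1.82% in muscle. Most genes of this pathway list were thus near 0% in muscle as well, as was the median start over all genes, at 0.926%.

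**Figure D4:**
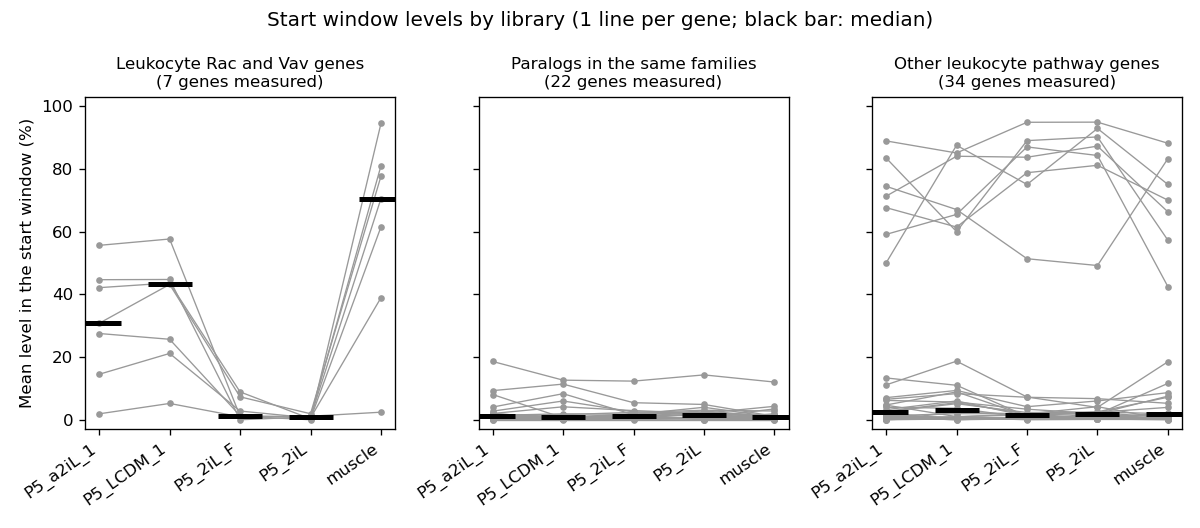
Mean start window level in percent (vertical axis) by library (horizontal axis), 1 line per gene and a black bar for the median, for the 7 measured Rac and Vav genes, their 22 measured paralogs and 34 further pathway genes. The median of the 7 genes is 30.8% in P5_a2iL_1, 43.1% in P5_LCDM_1, 1.30% in P5_2iL_F, 0.823% in P5_2iL and 70.5% in muscle, while the paralogs stay at or under 18.6%.

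Marker genes of leukocytes went both ways between the teratomas and muscle. Of 16 pan-leukocyte genes 5 were measured, and their range was 9.53% to 88.9% in P5_a2iL_1, 10.4% to 97.8% in P5_LCDM_1, 9.83% to 85.2% in P5_2iL_F, 0.617% to 98.1% in P5_2iL and 6.54% to 86.1% in muscle. Lower than muscle were 3 of 5 in P5_a2iL_1, P5_LCDM_1 and P5_2iL_F and 2 of 5 in P5_2iL. Over all genes 0.667%, 0.998%, 0.847% and 0.940% were lower in P5_a2iL_1, P5_LCDM_1, P5_2iL_F and P5_2iL. Past the size rule 0 of these 5 genes were higher in any teratoma, beside 2.83% to 4.34% of all genes. Itgb2, the beta chain of leukocyte integrins, lay at 22.5% in P5_a2iL_1, 38.3% in P5_LCDM_1, 9.83% in P5_2iL_F, 0.617% in P5_2iL and 70.5% in muscle. Itgal, an alpha chain that pairs with it, lay at 24.7%, 24.7%, 17.5%, 0.938% and 61.9% in these libraries. Runx3, a transcription factor gene, lay at 50%, 33.3%, 50%, 66.7% and 83.3%. Ikzf1, which encodes the lymphoid transcription factor Ikaros, was above muscle in all 4 teratomas by less than the size rule, at 9.53%, 10.4%, 18.7%, 19.1% and 6.54%. Rcsd1 lay at 88.9%, 97.8%, 85.2%, 98.1% and 86.1%, above muscle in 3 of the 4 teratomas. Of 12 myeloid genes 4 were measured and went both ways. Tyrobp, a signalling adaptor of myeloid and natural killer cells, lay at 32.4%, 43.6%, 9.76%, 0.246% and 63.1%, and Spi1, which encodes the transcription factor PU.1, at 51.0%, 65.6%, 90.6%, 95.6% and 40.2%.

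T cell and endothelial markers showed no common direction. Of 16 T cell genes 7 were measured, and in P5_2iL 1 was lower, Cd6, at 53.1% in P5_a2iL_1, 77.8% in P5_LCDM_1, 35.7% in P5_2iL_F, 31.9% in P5_2iL and 86.4% in muscle. Of 12 endothelial genes 10 were measured, of which 2 were lower and 1 higher in P5_2iL. Over all genes 0.940% were lower and 4.34% higher in that library. Tie1, an endothelial receptor gene, lay at 42.2% in P5_a2iL_1, 11.2% in P5_LCDM_1, 5.04% in P5_2iL_F, 0% in P5_2iL and 48.8% in muscle over 4 cytosines. Eng, a co-receptor gene, lay at 42.8%, 4.63%, 8.28%, 4.26% and 33.7%, and Plvap, a gene of fenestral diaphragms, at 44.0%, 26.2%, 69.5%, 72.5% and 22.8%. Of 20 skeletal muscle genes 14 were measured and 0 were lower. Higher were 6 in P5_a2iL_1 (2.83% of all genes), 7 in P5_LCDM_1 (3.09%), 9 in P5_2iL_F (4.04%) and 9 in P5_2iL (4.34%). The largest in P5_2iL were Casq1 (96.3% against 14.3% in muscle), Ldb3, Tnni1 (88.6% against 39.6%), Tnni2 (83.8% against 36.9%), Ckm (85.1% against 46.8%) and Myf6 (84.0% against 45.7%). The part of cell makeup in the levels of the Rac and Vav genes was not tested.

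The 5 genes whose start windows lay nearest to Rac2 over the 5 libraries, by root mean square difference among genes with 5 or more shared cytosines, were Tifab (5.39 points), Slc12a3 (8.996), Gm44180 (12.1), Cebpe (13.9) and Wdtc1 (14.3). Tifab lay at 51.5% in P5_a2iL_1, 50.6% in P5_LCDM_1, 8.36% in P5_2iL_F, 1.36% in P5_2iL and 89.4% in muscle over 20 cytosines. Slc12a3 lay at 44.3%, 59.98%, 11.0%, 1.94% and 81.4% over 9 cytosines in these libraries. Gm44180 lay at 77.3%, 64.8%, 12.3%, 8.07% and 98.5% over 17 cytosines. Cebpe lay at 60.1%, 57.9%, 11.3%, 11.7% and 67.8% over 45 cytosines. Wdtc1 lay at 54.0%, 52.1%, 22.0%, 3.36% and 71.1% over 10 cytosines. All 5 genes were picked for this likeness, which rests on 5 values each.

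In the promoter stretches of the table, motifs were searched as letters on both strands. GAGGAAGT, a binding motif of PU.1, was in 2 of the 15 promoters of the 9 genes, those of Vav1 at -11 bp and of Apbb1ip at +5 bp as its reverse complement, and in 3.20% of all 32851 promoters. CCGGAAGT, a motif of other ETS factors that shares GGAAGT with it, was in 0 of 15 and in 3.89% of all. TGTGGTTT and TGTGGTC, letters of RUNX motifs, were in 0 and in 1 of 15 (Arhgdib), and in 1.78% and 4.19% of all. GGGCGG, a motif of Sp1, was in 6 of 15, of Arhgdib, Arhgef18, Coro1a, Ripor2 and Vav1, and in 35.7% of all, and CAGCTG, an E-box, in 2 of 15 and 16.3% of all. A match is a description of letters and not a binding site.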

How the data were processed

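DNA methylation was measured in 5 libraries, 1 per group. The authors deposited a methylation level in percent per CpG cytosine, without read numbers. The submitters' processing notes name mm10, Bismark and Trim Galore 0.6.4. For Bismark's version and any coverage minimum, no value is given in the sources. Per the labels, libraries were amplified by PCR, so reads are not independent molecules. The second column was read as the position counted from 1, since 495270 of 495270 listed positions inside RefSeq promoters then fell on a CpG cytosine. Strands came from these sequences and from adjacent positions of a CpG, and the rest are called unassigned.

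Gene positions came from RefSeq (GRCm38.p6). For 17492 genes the promoter table gave the strand, and for 4395, Rac2 among them, the end with more cytosines was used. Levels were unweighted means over cytosines listed in all 5 libraries. With 1 library per group, no test was run. Differences were described by the 25 point rule and set against the same rule over all genes. The window code was tested on simulated data. The B cell marker list is not reported here. The members and lists were chosen with earlier results of these data known. All members are named, with list genes past the rule in P5_2iL (at most 6 per list), some further list genes and the 5 genes nearest to Rac2. The alternatives were a 40 point rule, 5 cytosines per window, the median, each strand alone, a narrower window, cytosines shared by the pair, and no cytosines near other genes. The tools were pandas 2.3.3, NumPy 2.4.6 and matplotlib 3.10.9 under Python 3.11.15.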

Additional observations from a re-analysis of the deposited data

How the results depend on the processing

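Of 495 member differences recomputed over 63 differences, 456 kept their side of the size rule, 28 fell short of it, 7 passed it and 4 turned. The rule was 25 points, but 40 in the 40 point alternative, where differences between 25 and 40 points count as falling short. A change of sign counted as a turn only where the main or the recomputed difference was past the rule. The 4 turns all came from taking the other end of Rac2 as its start, an alternative chosen after seeing the data. There Rac2 differed from muscle by 0.444 points in P5_a2iL_1, 19.4 in P5_LCDM_1, 16.0 in P5_2iL_F and -1.19 in P5_2iL, and P5_a2iL_1 differed from P5_2iL_F by -15.6. With 40 points, the members lower than muscle numbered 2 in P5_a2iL_1 and 1 in P5_LCDM_1 (4 each at 25 points). Members higher than P5_2iL numbered 3 in P5_a2iL_1 (5 at 25 points), and members higher than P5_2iL_F 2 in P5_a2iL_1 and 2 in P5_LCDM_1 (4 each). In the narrower window P5_a2iL_1 was higher at 3 members against P5_2iL and at 2 against P5_2iL_F. Over all genes, 17, 33, 58 and 65 were lower than muscle at 40 points in P5_a2iL_1, P5_LCDM_1, P5_2iL_F and P5_2iL, and 93, 139, 118 and 131 at 25 points. Higher than muscle were 153, 170, 269 and 309 at 40 points, and 395, 431, 563 and 604 at 25. With medians over cytosines 176 were lower in P5_a2iL_1 and 242 in P5_LCDM_1. Depth per cytosine is unknown, so levels of single cytosines are the least firm. No paired analysis was possible because each group holds 1 library, and for the same reason none could be left out.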
